A study of Rattus norvegicus with 31 samples.

Results

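The collagen genes of the rat liver were followed in 7 groups of young adult female Wistar (Crl:WI) rats that were gavaged daily for 28 days. Collagen genes were all rows of the count table whose symbol is Col, a number, the letter a and a number, in any letter case, with at least 2 counts over the 31 libraries. There were 44 such rows among 26312 genes, and all 44 were among the 19904 genes tested. They stand for 43 symbols, because Col4a3 had a second row with 3 counts, all of them in 1 rat. They were sorted into 11 fibrillar collagens, 7 rows of the basement membrane collagen type IV, and 26 rows of other collagens.

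The 8 controls received the vehicle only. Thiacloprid (THI) was given at 108, imazalil (IMZ) at 93 and clothianidin (CTD) at 288 mg per kg body weight per day. THI and CTD are neonicotinoid insecticides, and IMZ is an azole fungicide. The mixtures held 54 mg THI with 46 mg IMZ, 54 mg THI with 134 mg CTD, and 46 mg IMZ with 135 mg CTD per kg body weight per day. There were 3 rats on CTD and 4 rats in each of the other treated groups, and every rat gave 1 liver library of total RNA. For the CTD group the paper records that at least 1 rat had to be killed because it was moribund. Of the liver, the hilus and the connective tissue beside it were discarded before sampling, which limits what these libraries can show of the large portal tracts.

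Collagens are proteins of the extracellular matrix whose chains wind around each other in a triple helix of 3 chains. Fibrillar collagens such as types I and III are secreted as procollagens, trimmed at both ends, packed into fibrils and cross-linked by lysyl oxidases. Type IV chains instead join into the sheet-like network of basement membranes. In the liver, stellate cells are the best known source of fibrillar collagen, and endothelial cells, portal fibroblasts and bile duct cells add to the basement membrane and portal matrix. Deposition of types I, III and IV is the hallmark of fibrosis, in which stellate cells turn into myofibroblasts under transforming growth factor beta.

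Depth differed between libraries, which held 31.8 M to 101 M counts. The median depth was 60.5 M for control rats and 40.2 M for treated ones. Markers of hepatocytes such as Alb and Ttr, in a list of 8, summed to 169000 to 260000 CPM in every library, and none of the 8 was at 0 in any group. CPM is a count divided by the library's total in M, scaled by TMM. It was not divided by transcript length, so levels were compared between rats and not between genes. Pairs of libraries within a group differed with a chi-square of 30.6 to 245 per degree of freedom, where counting error alone gives about 1, and no 2 libraries looked like copies of each other. Collagen rows held 0.0901% to 0.133% of all counts in the controls and 0.119% to 0.149% in CTD, ranges that overlap. The other 5 groups lay between 0.096% and 0.155%. In bulk tissue, fewer cells of a type and less RNA per cell cannot be told apart, and neither can their increase.

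Of all collagen counts, 31.2% fell on fibrillar collagens, 9.24% on type IV and 59.6% on the others. Col18a1, a multiplexin of basement membranes whose end fragment is endostatin, took 46.5% by itself and Col3a1 took 23.1%. These are shares of reads and grow with the length of a transcript. The mean was at least 1 CPM in 21 rows. The other 23 rows held between 3 and 1293 counts in all 31 libraries together, among them the cartilage collagen Col2a1 with 17 counts and the growth plate collagen Col10a1 with 3.

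CTD was the treatment after which most collagen genes were called (edgeR quasi-likelihood test, adjusted p under 0.05 by Benjamini-Hochberg over all 19904 genes). Of the 44 rows, 9 (20.5%) were called, where 12.7% of all genes tested were. Up-regulated were 8 rows (background 6.62%) and down-regulated 1 (background 6.03%). Among rows with a mean of at least 1 CPM, 7 of 21 were called, all of them up-regulated. Of the 11250 genes at that level, 19.6% were called and 9.91% were up-regulated. The called members were the fibrillar Col3a1, Col5a1 and Col5a2, the type IV chains Col4a1, Col4a2 and Col4a5, and Col8a1, Col9a3 and Col6a5 among the others. At an unadjusted p under 0.05 there were 12 rows (background 25.2%). The median log2 fold change was 0.24 in fibrillar, 0.19 in type IV and 0.00 in other collagens, next to -0.07 over all genes. The median of type IV, over 7 rows, was 0.33, 0.36 and 0.00 without CTD rat 1, 2 and 3. It was 0.39 without the last rat on THI + CTD and 0.40 with filterByExpr. Type IV includes the second row of Col4a3, which had no count in the controls or CTD rats and so a log2 fold change of 0. That row drops out with filterByExpr and without the last rat on THI + CTD, which held all its counts. The median of fibrillar collagens was 0.44 without control 1. In the CTD rats the summed level of 14 stellate cell markers was lower than in every control (288 to 371 CPM against 388 to 504 CPM). That of 4 red blood cell genes was higher than in every control (124 to 150 CPM against 22.2 to 52.2 CPM). The part of either in the collagen values was not tested. In 18 of the 21 rows with a mean of at least 1 CPM the log2 fold change was above 0, as it was in 48.2% of all genes at that level.

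Col3a1, the chain of the homotrimeric type III fibrils of soft organs, was at 377, 303 and 418 CPM in the 3 CTD rats. The controls ranged from 183 to 320 CPM with a median of 250. The second CTD rat lay inside the control range and the other 2 above it. The log2 fold change was 0.54 ± 0.13 (SE, n = 3 and 8, adjusted p = 0.0061, edgeR). Col5a1 and Col5a2 encode the chains of type V collagen, which sits inside type I fibrils and sets their diameter. Col5a2 was at 20.3, 14.7 and 19.5 CPM after CTD and at 9.05 to 14.1 CPM (median 11.6) in the controls, so that all 3 CTD rats were above all 8 controls. That was the case for 3 collagen rows, Col5a2, Col4a2 and Col9a3, and for 5.33% of all genes. The log2 fold change of Col5a2 was 0.62 ± 0.15 (adjusted p = 0.00393, edgeR). Col5a1 was at 40.1, 36.9 and 47.3 CPM against 23.7 to 39.5 CPM (median 32) in the controls. Its second CTD rat again fell within the controls, and its log2 fold change was smaller, 0.41 ± 0.13 (adjusted p = 0.0372, edgeR).

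The chains of type I collagen, the main fibril of scar tissue, did not pass the test after CTD. Col1a1 was at 16, 10.7 and 17.1 CPM in CTD and at 3.74 to 16.6 CPM (median 7.7) in the controls. Only the third CTD rat was above every control, and the highest control stood well apart from the next at 11.3 CPM. For Col1a1 the log2 fold change was 0.75 ± 0.27 (adjusted p = 0.0625, edgeR; 0.0344 with DESeq2 and 0.0499 with the filter of filterByExpr, both under the threshold). Col1a2 was at 32.2, 26.4 and 38.1 CPM after CTD, within the control range of 21.8 to 41.3 CPM (median 28.4), with a log2 fold change of 0.13 ± 0.16 (95% interval -0.19 to 0.45, adjusted p = 0.631, edgeR). Of the other fibrillar genes, Col27a1 had a log2 fold change of 0.24 ± 0.25, and the low-count genes Col2a1, Col5a3, Col11a1, Col11a2 and Col24a1 had 17 to 839 counts in all and lay between -0.68 and 0.86.

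**Figure D1:**
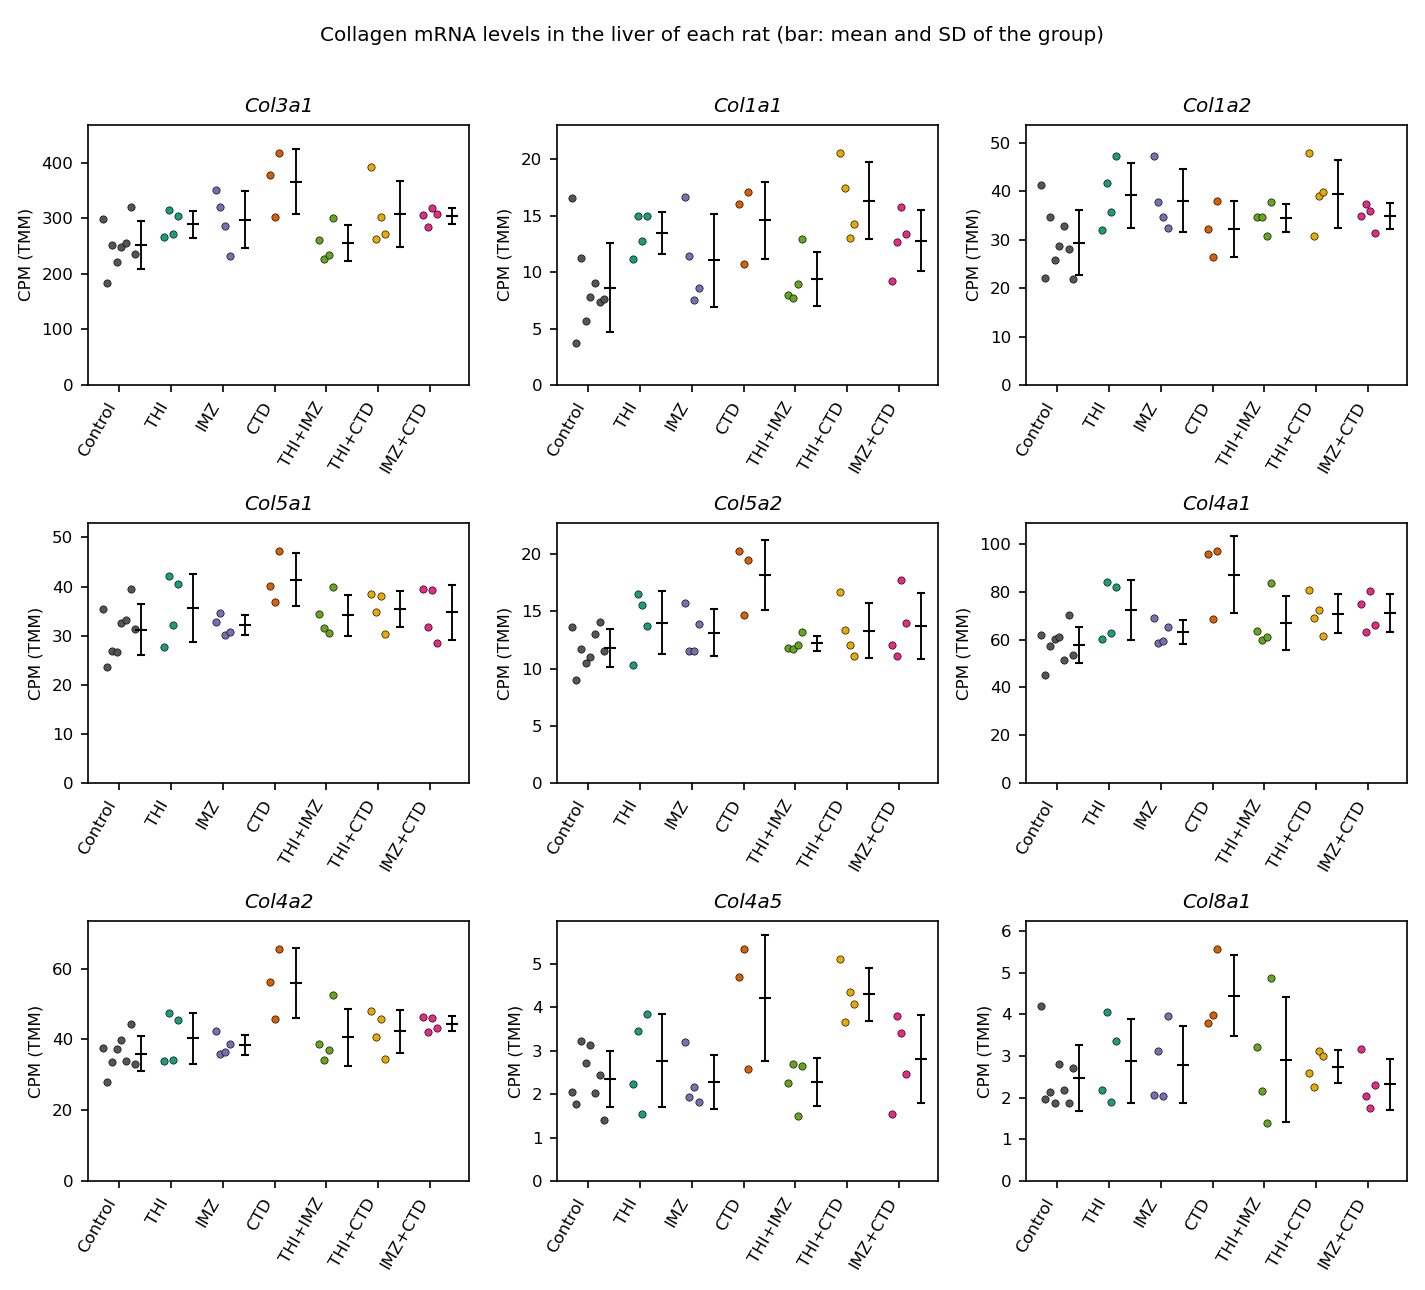
Levels of 9 collagen genes in each rat, in CPM scaled by TMM on a linear axis from 0, by group (8 Control, 3 CTD and 4 rats in each other group). Dots are rats, the bar beside them is the mean with the SD. For Col4a2 and Col5a2 the 3 CTD rats lie above all controls, and for Col4a5 the 4 THI+CTD rats do.

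Col4a1 and Col4a2 form the common type IV heterotrimer, which is found in almost every basement membrane. Their genes lie head to head. In the RefSeq annotation of GRCr8, their start sites are 76 bases apart on chromosome 16, and the other type IV genes are paired in the same way, Col4a3 with Col4a4 (412 bases) and Col4a5 with Col4a6 (1414 bases). The 76 bases between the starts, chr16:84885521-84885596 on the plus strand of GRCr8, are shown because both genes, read outward from them, moved together here. Capitals mark the only GGGCGG, the GC box core, which is on the opposite strand and so reads as its complement. TATAAA and CCAAT do not occur in the window.
Col4a1 and Col4a2: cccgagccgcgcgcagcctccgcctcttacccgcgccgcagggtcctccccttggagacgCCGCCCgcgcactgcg
Of these bases 78.9% are G or C.

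Col4a2 was at 56.2, 45.9 and 65.6 CPM in the CTD rats, all above the controls at 28 to 44.3 CPM (median 35.6). The log2 fold change was 0.64 ± 0.13 (adjusted p = 0.000807, edgeR), the lowest adjusted p of any collagen row in any comparison made. Col4a1 was at 95.8, 68.7 and 97.2 CPM against 45.2 to 70.3 CPM (median 58.8) in the controls, with the second CTD rat just under the highest control. Its log2 fold change was 0.60 ± 0.12 (adjusted p = 0.00118, edgeR). Col4a5, whose chain joins those of Col4a3 and Col4a4 or that of Col4a6, was at 4.71, 5.35 and 2.58 CPM after CTD and at 1.41 to 3.23 CPM (median 2.24) in the controls. Here the third CTD rat was within the controls. This gave a log2 fold change of 0.84 ± 0.26 (adjusted p = 0.0332, edgeR). The chains that share its helices did not pass the test. Col4a3 had a log2 fold change of 0.01 ± 0.24, Col4a4 one of 0.19 ± 0.22 and Col4a6 one of -0.17 ± 0.55.

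Col8a1, a short chain collagen of vessel walls, was at 3.8, 3.98 and 5.57 CPM after CTD and at 1.87 to 4.2 CPM (median 2.15) in the controls, where a single rat was above 2.81 CPM. This gave a log2 fold change of 0.84 ± 0.28 (adjusted p = 0.0439, edgeR). Its partner Col8a2 had -0.18 ± 0.26. Col9a3, a chain of a collagen known from the surface of cartilage fibrils, was called on few reads. The CTD rats had 5, 12 and 7 counts and the controls 0 to 6, which gave 0.13, 0.31 and 0.215 CPM against 0 to 0.11 CPM (median 0.0606). All 3 were above all controls, with a log2 fold change of 1.90 ± 0.55 (95% interval 0.77 to 3.03, adjusted p = 0.0203, edgeR). Col9a1 and Col9a2 had 5 and 56 counts in all.

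Col6a5, one of the longer alpha chains of the beaded filament collagen type VI, was the down-regulated member. The CTD rats had 2, 4 and 1 counts (0.052, 0.103 and 0.0308 CPM) and the controls 5 to 49 counts (0.151 to 0.706 CPM, median 0.369). All 3 were below all controls, which held for 5.48% of all genes and for no further collagen row. Its log2 fold change was -2.61 ± 0.72 (95% interval -4.07 to -1.15, adjusted p = 0.0134, edgeR). The chains that make up most type VI collagen lay close to 0, with -0.04 ± 0.11 for Col6a1, 0.15 ± 0.12 for Col6a2 and 0.15 ± 0.16 for Col6a3. Col6a6 was at 2.81, 1.55 and 3.78 CPM against 3.28 to 5.86 CPM (median 4.11) and had -0.68 ± 0.29 (adjusted p = 0.123, edgeR). Col18a1 was at 463, 501 and 548 CPM, inside the control range of 443 to 682 CPM (median 597), with -0.21 ± 0.13 (adjusted p = 0.344, edgeR). Col14a1, a FACIT collagen that coats fibrils, was at 48.7, 50.5 and 63.5 CPM against 35.8 to 58.2 CPM (median 48.1) and had 0.21 ± 0.14 (adjusted p = 0.359, edgeR).

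The second CTD rat was the lowest of its group for Col3a1, Col5a1, Col5a2, Col4a1, Col4a2, Col1a1 and Col1a2. Leaving out libraries changed several calls. Col4a1 and Col4a2 were called without any 1 of the 31 libraries. Without the first CTD rat 4 rows were called in place of 9, and Col5a2 (adjusted p = 0.0525), Col5a1 (0.0873), Col4a5 (0.149), Col8a1 (0.072) and Col6a5 (0.074) were lost. Without the second, Col9a3 (0.15), Col4a5 (0.235) and Col8a1 (0.0775) were lost, and without the third Col3a1 (0.0645), Col5a1 (0.221), Col6a5 (0.0635) and Col8a1 (0.222). Without 1 control (any of 2, 3, 4, 6, 7 or 8 for Col8a1, of 1, 2, 6 or 8 for Col4a5 and of 2, 3 or 4 for Col5a1) these 3 genes rose to adjusted p-values between 0.0504 and 0.0722.

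**Figure D2:**
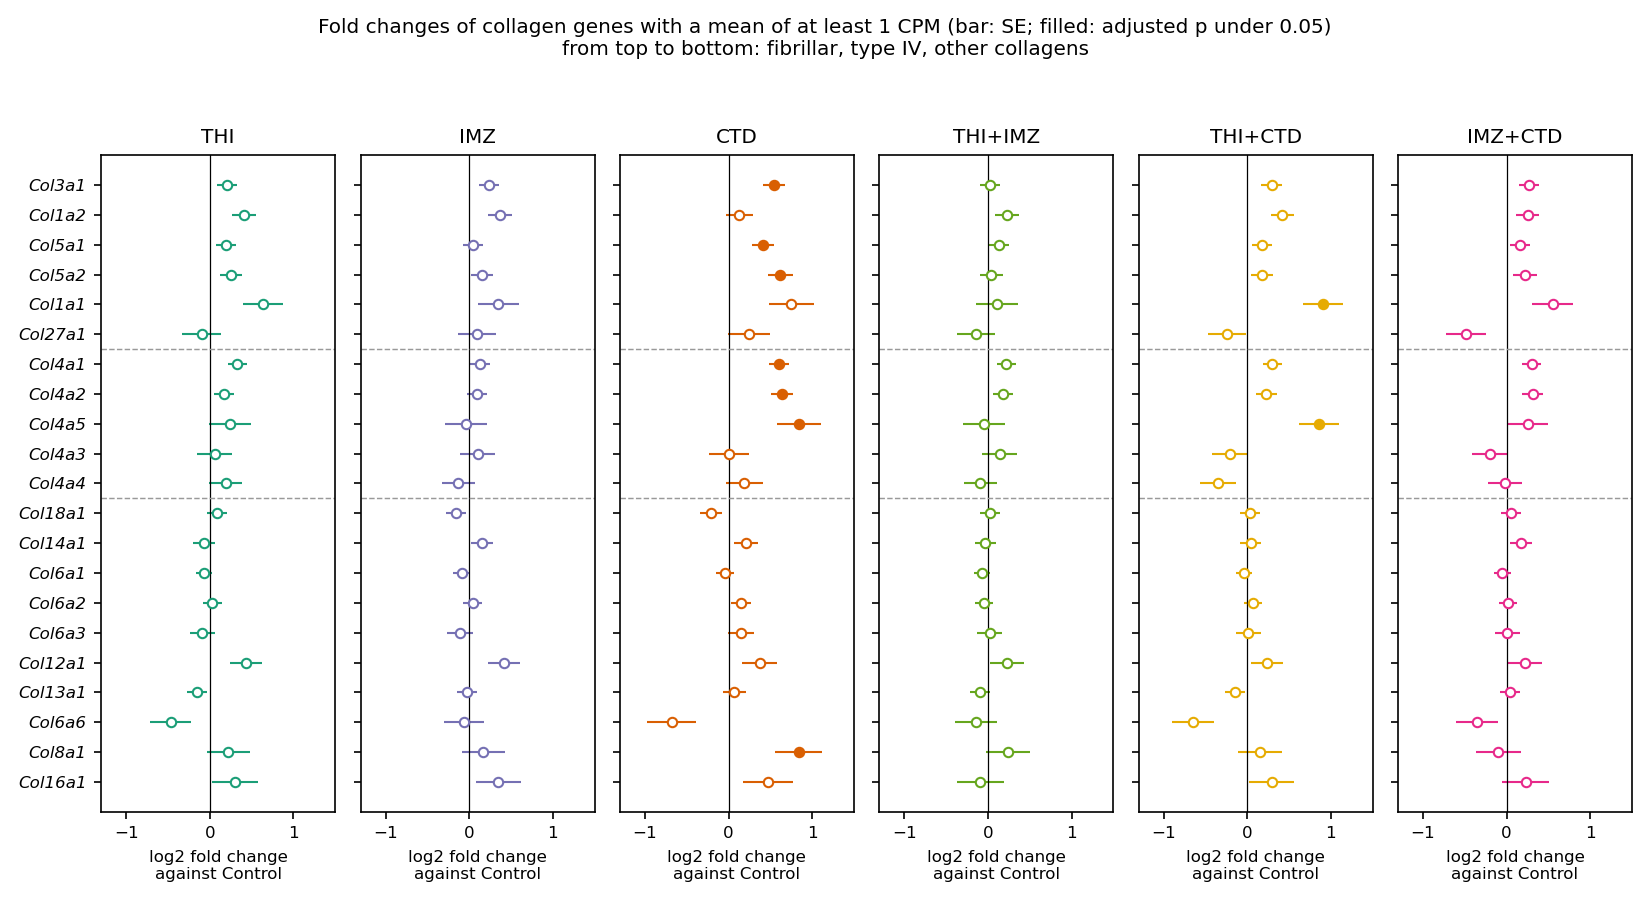
Log2 fold changes against Control for the 21 collagen rows with a mean of at least 1 CPM, in 6 panels, one for each treatment. Bars are the SE, filled symbols mark an adjusted p under 0.05, and dashed lines part fibrillar (top), type IV and other collagens. Filled symbols appear in the CTD panel (7) and the THI+CTD panel (2).

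THI + CTD held 134 mg CTD, less than the 288 mg given alone. Called were 2 of the 44 rows (4.55%, background 4.39%), Col1a1 and Col4a5, both up-regulated (background 2.67%). Col1a1 was at 20.6, 17.5, 13 and 14.3 CPM against 3.74 to 16.6 CPM (median 7.7) in the controls, with 2 of the 4 rats above every control. The log2 fold change was 0.91 ± 0.24 (n = 4 and 8, adjusted p = 0.0227, edgeR). Col1a2 was at 48, 30.7, 39.1 and 39.8 CPM and had 0.42 ± 0.14 (adjusted p = 0.0823, edgeR). Col4a5 was at 5.11, 3.66, 4.36 and 4.07 CPM, and all 4 rats were above all 8 controls (1.41 to 3.23 CPM), as 2.14% of all genes were. Its log2 fold change was 0.86 ± 0.24 (adjusted p = 0.0327, edgeR). Col4a1 and Col4a2 had 0.30 ± 0.11 and 0.23 ± 0.12 and did not pass the test (adjusted p = 0.15 and 0.303, edgeR). Without the first rat on THI + CTD no collagen row was called (Col1a1 0.0999, Col4a5 0.109). The call of Col1a1 was also lost without the second rat (0.0719), and that of Col4a5 without the third (0.0934) or the last rat (0.0607) or without control 1, 2, 6 or 8 (0.0526 to 0.0655). An unadjusted p under 0.05 was found in 11 rows, 6 higher and 5 lower (background 17.6%), and 1 of the 6 was the second row of Col4a3, with its 3 counts in 1 rat.

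For THI, IMZ, THI + IMZ and IMZ + CTD no collagen row was called by edgeR, and none by DESeq2. Of all genes, 0.543%, 0.251%, 1.18% and 1.46% were called by edgeR. An unadjusted p under 0.05 was seen in 5 rows after THI (background 8.68%), 2 after IMZ (8.08%), 0 after THI + IMZ (11.1%) and 7 after IMZ + CTD (12.8%). After THI these were Col1a1 (11.2, 15, 12.8 and 15 CPM, log2 fold change 0.64 ± 0.24, adjusted p = 0.411), Col1a2 (0.41 ± 0.14, adjusted p = 0.288), Col4a1 (0.33 ± 0.11, adjusted p = 0.327), Col12a1 and Col26a1. Col26a1 had 0 or 1 count in each THI rat and in each THI + CTD rat and 2 to 12 counts in each control. It was the 1 row that lay below all controls in THI (background 0.688%) and the 1 row in THI + CTD (1.82%), with adjusted p-values of 0.345 and 0.105 (edgeR). After IMZ, Col1a2 was at 47.2, 37.8, 34.8 and 32.4 CPM (0.37 ± 0.14, adjusted p = 0.424) and Col12a1, a FACIT collagen, at 12.2, 7.82, 7.63 and 8.56 CPM (0.42 ± 0.19, adjusted p = 0.587). After IMZ + CTD, Col3a1 was at 305, 285, 318 and 307 CPM (0.27 ± 0.12, adjusted p = 0.341), Col4a1 at 74.8, 63, 80.3 and 66.2 CPM (0.30 ± 0.11, adjusted p = 0.225) and Col4a2 at 46.4, 42.2, 46.1 and 43.2 CPM (0.31 ± 0.12, adjusted p = 0.235). All 4 values of Col4a2 were near the upper end of the controls (44.3 CPM).

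All 6 comparisons use the same 8 controls, so that a control rat far from the others moves each of them. Side by side, Col1a1 had a log2 fold change of 0.64 after THI, 0.35 after IMZ, 0.75 after CTD, 0.11 after THI + IMZ, 0.91 after THI + CTD and 0.55 after IMZ + CTD. Col4a2 had 0.17, 0.09, 0.64, 0.18, 0.23 and 0.31 in the same order, and Col18a1 had 0.08, -0.16, -0.21, 0.02, 0.03 and 0.05. Over the 7 groups, an F test of all 6 treatment terms called 3 of the 44 rows (background 9.51%), all of type IV. These were Col4a2 (adjusted p = 0.0278, edgeR), Col4a1 (0.0304) and Col4a5 (0.0448). At an unadjusted p under 0.05 there were 10 rows (background 23.7%). Without the first CTD rat this test called 0 rows, and without the third CTD rat or control 6 it called 1.

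The mixtures were then set against the dose-weighted sum of their compounds, which is the log2 fold change expected if each compound acted in proportion to its dose (weights 0.5 for THI and IMZ and 0.47 for CTD). No collagen row departed from that sum in any mixture by edgeR or by DESeq2. By edgeR, 0.0151% of all genes did in THI + IMZ, 0.286% in THI + CTD and 1.16% in IMZ + CTD. An unadjusted p under 0.05 was seen in 1, 2 and 4 of 44 rows (background 6.46%, 9.66% and 14.3%). The intervals show how large a departure the data would still allow. For Col4a1 the difference was -0.01 (95% interval -0.25 to 0.22) in THI + IMZ, -0.15 (-0.39 to 0.09) in THI + CTD and -0.04 (-0.28 to 0.20) in IMZ + CTD. For Col1a1 the intervals were wider, with -0.38 (-0.90 to 0.13), 0.24 (-0.27 to 0.75) and 0.03 (-0.49 to 0.54). For Col3a1 the differences were -0.20, -0.06 and -0.10 with intervals that all included 0. Col8a1 in IMZ + CTD differed from the sum by -0.58 (-1.14 to -0.01, adjusted p = 0.336, edgeR).

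**Figure D3:**
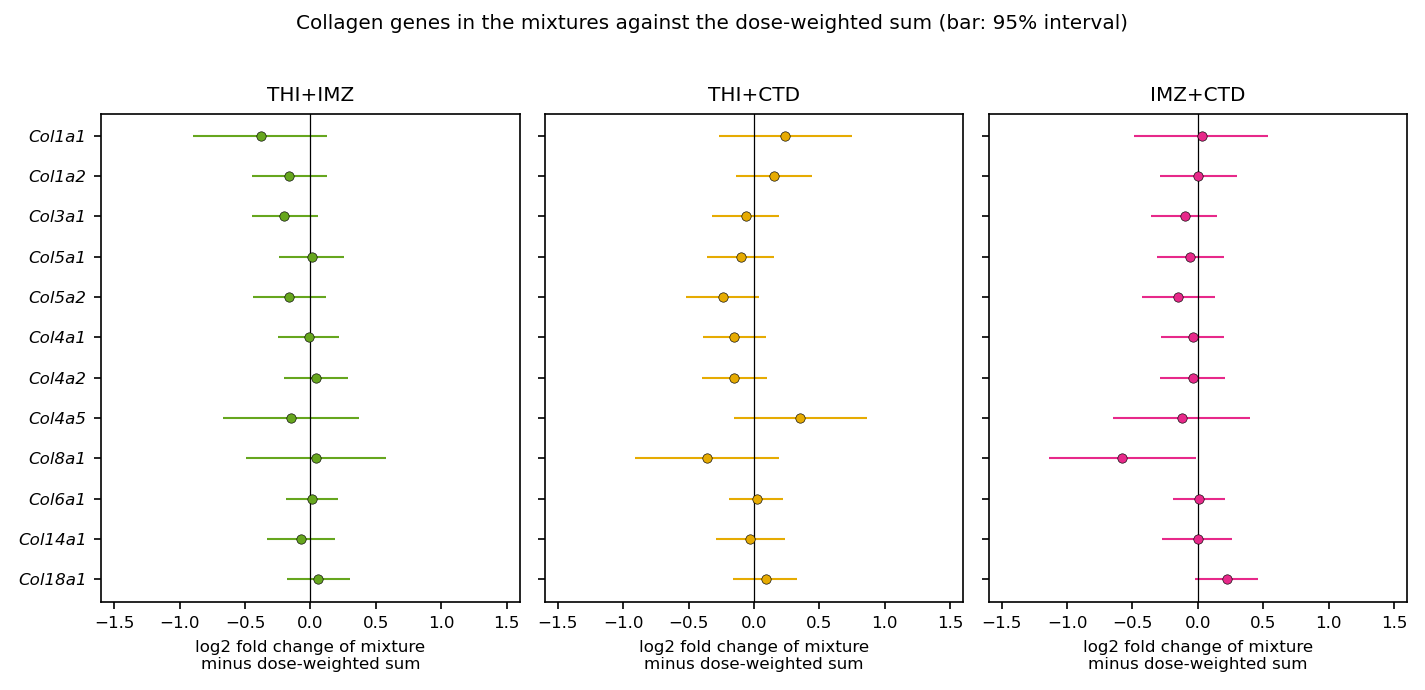
Difference between the log2 fold change of a mixture and the dose-weighted sum of its compounds for 12 collagen genes, in 3 panels for THI+IMZ, THI+CTD and IMZ+CTD. Bars are 95% intervals. No gene shown had an adjusted p under 0.05, and the interval of Col8a1 in IMZ+CTD, which ends at -0.01, is the one that does not reach 0.

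Partner chains were compared rat by rat, on log2 CPM with the group means removed. Over 31 rats, Col4a1 and Col4a2 had a Pearson r of 0.95 (Spearman rho 0.95, adjusted p = 8e-05 for both, permutation within groups), and r was 0.93 without the 2 rats farthest from the median of Col4a1. In the 8 controls alone r was 0.96 (rho 0.90, exact permutation test, adjusted p = 0.0017 and 0.0076) and 0.83 without 2 rats. Col1a1 and Col1a2 had an r of 0.75 (rho 0.74, adjusted p = 0.00028 and 0.00032), which was 0.63 without 2 rats and 0.88 in the controls (rho 0.86, exact permutation test, adjusted p = 0.006 and 0.014). Col1a1 and Col3a1 had an r of 0.71 (rho 0.71, adjusted p = 0.00077 and 0.00032), 0.61 without 2 rats. In the controls their r of 0.74 (rho 0.62, exact permutation test, adjusted p = 0.045 and 0.13) fell to 0.20 without 2 rats and so rests on them. Col1a1 and Col4a1, of different matrix types, had an r of 0.54 (rho 0.53, adjusted p = 0.004 and 0.0076), 0.46 without 2 rats, and in the controls 0.46 (rho 0.26, exact permutation test, adjusted p = 0.23 and 0.54), which became -0.35 without 2 rats and so does not hold. All 8 relations computed are given, and the permutation p-values of the first pair over 31 rats, before adjustment 1e-05, were the smallest possible.

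The ratio of 2 chains within a rat was also compared with the controls for 4 pairs in 6 treatments, 24 comparisons that were chosen after the values had been seen. The log2 ratio of Col4a1 to Col4a2 was 0.84 ± 0.02 (SD, n = 4) in THI and 0.68 ± 0.05 (n = 8) in the controls (two-sided exact permutation test, p = 0.002, the smallest possible, adjusted p = 0.048 over the 24). The log2 ratio of Col1a1 to Col1a2 was -1.15 ± 0.15 (n = 3) in CTD and -1.86 ± 0.39 (n = 8) in the controls, a difference of 0.70 (exact permutation test, adjusted p = 0.18). The log2 ratio of Col6a1 to Col6a2 was 0.71 ± 0.05 (n = 3) in CTD and 0.91 ± 0.08 (n = 8) in the controls (exact permutation test, adjusted p = 0.073). In the other 21 comparisons the adjusted p was 0.18 or more.

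**Figure D4:**
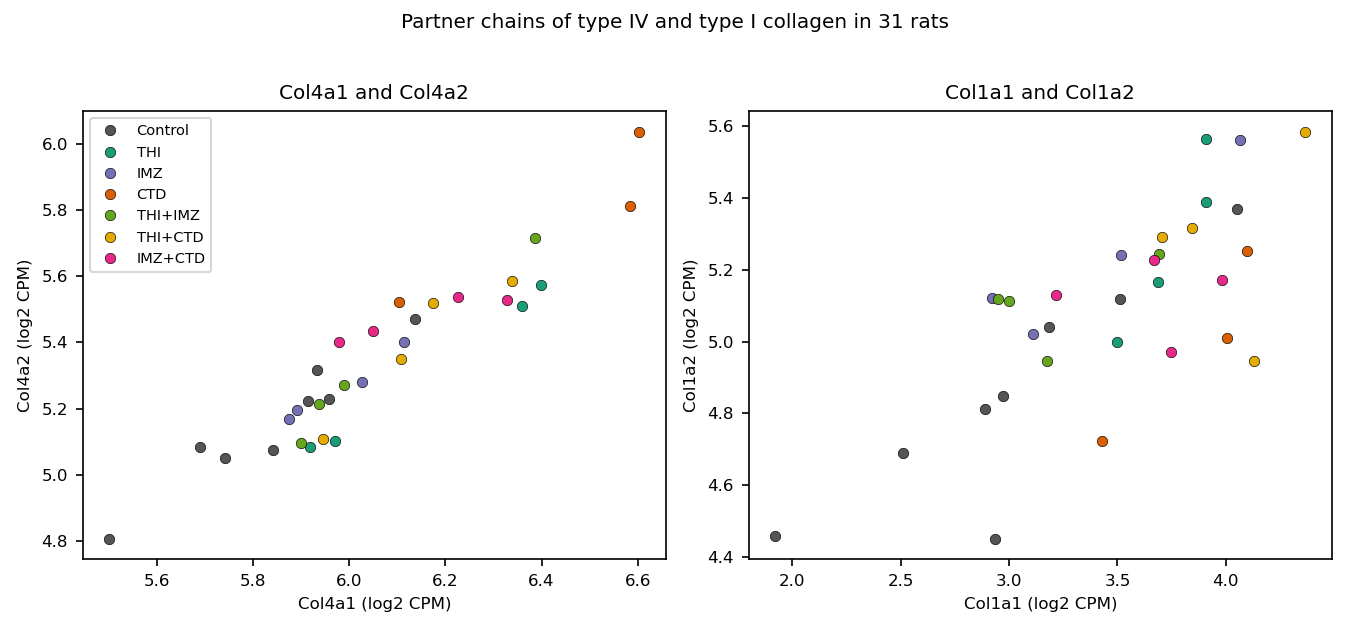
Partner chains in each of the 31 rats as log2 CPM, Col4a1 on the x axis and Col4a2 on the y axis at the left, Col1a1 and Col1a2 at the right, coloured by group. The type IV points lie close to a line (r = 0.95 with group means removed), and the type I points scatter more widely (r = 0.75).

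Upstream sequence was looked at in the RefSeq promoter table of GRCr8, in which 34 of the 43 collagen symbols had an entry. In the 250 bases before the start, both strands read, TATAAA occurred in 13.1%, CCAAT in 34.3% and GGGCGG in 32.4% of 27457 promoters. The windows of Col1a2 and Col5a2 are shown as those of a fibrillar gene called after CTD, Col5a2, and of one that was not, Col1a2. The difference between their fold changes was not tested. In the window of Col1a2 (chr4:33518307-33518556, plus strand) the first capitals are CCAAT on the opposite strand and the second are TATAAA. The window of Col5a2 (chr9:55090152-55090401, minus strand) has none of the 3 motifs and therefore no capitals. Such matches are letters in a window and say nothing about binding.
Col1a2: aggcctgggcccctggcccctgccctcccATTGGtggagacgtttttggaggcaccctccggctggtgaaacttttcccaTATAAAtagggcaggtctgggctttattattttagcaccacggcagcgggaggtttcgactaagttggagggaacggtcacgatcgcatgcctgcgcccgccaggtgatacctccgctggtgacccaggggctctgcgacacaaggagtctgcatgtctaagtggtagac
Col5a2: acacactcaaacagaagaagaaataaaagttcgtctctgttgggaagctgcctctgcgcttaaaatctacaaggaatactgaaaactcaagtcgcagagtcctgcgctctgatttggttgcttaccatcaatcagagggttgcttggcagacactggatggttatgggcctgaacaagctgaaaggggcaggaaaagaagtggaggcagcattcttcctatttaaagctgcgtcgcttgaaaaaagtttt
G and C made up 58.4% of the first window and 44.8% of the second.

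Genes that make, trim, link, bind and degrade collagen were read from 6 lists. Of all genes, 12.7% were called after CTD (6.62% higher and 6.03% lower). Of genes with a mean of at least 1 CPM, 19.6% were called and 9.91% were higher. After CTD, 1 of 23 genes of collagen biosynthesis rose and 1 fell, 4 of 16 genes of processing and cross-linking outside the cell rose and 1 fell, and 0 of 19 genes of degradation and its inhibitors rose and 1 fell. Of 10 collagen receptors 1 rose, of 25 genes of other collagen-binding matrix 1 rose and 1 fell, and of 23 measured genes of profibrotic signalling 4 fell. The list medians of the log2 fold change lay between -0.22 and -0.04. Plod2, the lysyl hydroxylase of the telopeptides that form cross-links, was at 2.55, 2.53 and 2.55 CPM after CTD and at 0.561 to 1.68 CPM (median 0.778) in the controls. All 3 CTD rats were above all controls, and the log2 fold change was 1.45 ± 0.28 (adjusted p = 0.000477, edgeR). Lox, the lysyl oxidase, was at 1.77, 0.827 and 1.48 CPM against 0.181 to 1.06 CPM (median 0.446), with 2 of 3 rats above the controls (1.38 ± 0.37, adjusted p = 0.0111, edgeR). Without the first CTD rat, Lox did not pass (adjusted p = 0.111, edgeR), while Plod2 passed without any 1 of the 31 libraries.

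The procollagen proteinase Adamts2 had a log2 fold change of 0.79 ± 0.25 after CTD, the procollagen C-proteinase enhancer Pcolce one of 0.64 ± 0.18 and the lysyl oxidase homologue Loxl2 one of 0.53 ± 0.13. The C-proteinase Bmp1, which Pcolce assists, fell by 0.47 on the log2 scale, with a log2 fold change of -0.47 ± 0.10 (adjusted p = 0.00149, edgeR). Plod1, the lysyl hydroxylase of the helix, had -0.28 ± 0.09. The inhibitor of metalloproteinases Timp4 had 0 counts in all 3 CTD rats and 1 to 23 counts in the controls (adjusted p = 0.0304, edgeR). Itgb1, the beta subunit of the collagen-binding integrins, was at 157, 140 and 134 CPM against 95.7 to 122 CPM (0.45 ± 0.08, adjusted p = 0.000141, edgeR), and Sparc, a collagen-binding chaperone of the matrix, had 0.31 ± 0.07. The heparan sulfate proteoglycan Agrn had -0.34 ± 0.10. Bmp1, Itgb1 and Sparc passed without any 1 library. Without the first CTD rat the calls of Plod1 (adjusted p = 0.147), Pcolce (0.06), Adamts2 (0.0565), Loxl2 (0.0724), Timp4 (0.108) and Agrn (0.123) were lost, without the second those of Plod1 (0.125), Adamts2 (0.0922) and Timp4 (0.101), and without the third those of Pcolce (0.174), Adamts2 (0.141), Loxl2 (0.0632), Timp4 (0.0761) and Agrn (0.175). Without control 2 the call of Plod1 was lost (0.0508), and without control 2, 4, 5 or 6 that of Adamts2 (0.0504 to 0.0558).

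In profibrotic signalling, 4 genes of the transforming growth factor beta pathway fell after CTD, where 6.03% of all genes were lower. Tgfb1, the main profibrotic cytokine of the liver, was at 2.03, 1.32 and 1.26 CPM against 1.97 to 3.39 CPM (median 2.75), with a log2 fold change of -0.79 ± 0.22 (adjusted p = 0.0134, edgeR). Its receptor Tgfbr2 was at 102, 90.4 and 99.5 CPM, all below the controls at 123 to 150 CPM (-0.50 ± 0.07, adjusted p = 1.08e-05, edgeR). The co-receptor Tgfbr3 had -0.36 ± 0.09 and the signal mediator SMAD3 had -0.37 ± 0.12. Among the genes of this list that were not called, Smad2 had 0.25 ± 0.09 and Bambi 0.50 ± 0.20 (adjusted p = 0.071 and 0.0926, edgeR). Tgfbr2 passed without any 1 library. The call of Tgfb1 was lost without the second (adjusted p = 0.0907) or the third CTD rat (0.0804), that of Tgfbr3 without the second (0.0747), and that of SMAD3 without the first (0.0558), the second (0.241) or control 3, 6 or 8 (0.0539 to 0.0586).

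After THI + CTD, 4.39% of all genes were called and 2.67% were higher. In the 6 lists, Lox was at 2.12, 1.14, 0.852 and 1.7 CPM, with 3 of 4 rats above the controls (1.48 ± 0.34, adjusted p = 0.00768, edgeR). Adamts2 had 0.77 ± 0.23 (adjusted p = 0.0479, edgeR). The call of Adamts2 was lost without any of 18 single libraries. In the other lists, 1 of 23 biosynthesis genes fell (Leprel1, a prolyl 3-hydroxylase, -0.66 ± 0.17), no degradation gene was called, and 1 receptor rose (Itgb1, 0.36 ± 0.07) and 1 fell (Mrc1, the mannose receptor that takes up collagen, -0.33 ± 0.07). Sparc rose (0.28 ± 0.07) and Thbs1, thrombospondin 1, fell (-0.55 ± 0.14). Of profibrotic signalling genes, Bambi, a decoy receptor for transforming growth factor beta, rose (0.61 ± 0.18), Smad2 rose (0.33 ± 0.08) and Tgfbr3 fell (-0.37 ± 0.08). Itgb1, Mrc1 and Tgfbr3 passed without any 1 library. Without the first rat on THI + CTD the calls of Lox (adjusted p = 0.0534), Leprel1 (0.0624), Sparc (0.0546) and Bambi (0.0689) were lost. Without the second, Bambi (0.0534) was lost, without the third Leprel1 (0.0939), Sparc (0.0606), Thbs1 (0.0852), Smad2 (0.11) and Bambi (0.175), and without the last Leprel1 (0.0962), Thbs1 (0.104), Smad2 (0.112) and Bambi (0.0686). Bambi was also lost without control 2, 3, 5 or 8 (0.0597 to 0.0687).

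For THI, IMZ, THI + IMZ and IMZ + CTD no gene of the 6 lists was called by edgeR, and between 0 and 5 genes of a list had an unadjusted p under 0.05. Of all genes, 0.543%, 0.251%, 1.18% and 1.46% were called by edgeR in these comparisons. An unadjusted p under 0.05 was found in 8.68%, 8.08%, 11.1% and 12.8%. DESeq2 called Mmp14 and Tgfbr3 as lower after THI, Tgfbr3 as lower after IMZ, Plod2 as higher after THI + IMZ, and P4ha1 as lower and Loxl2 and Pcolce as higher after IMZ + CTD.

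**Figure D5:**
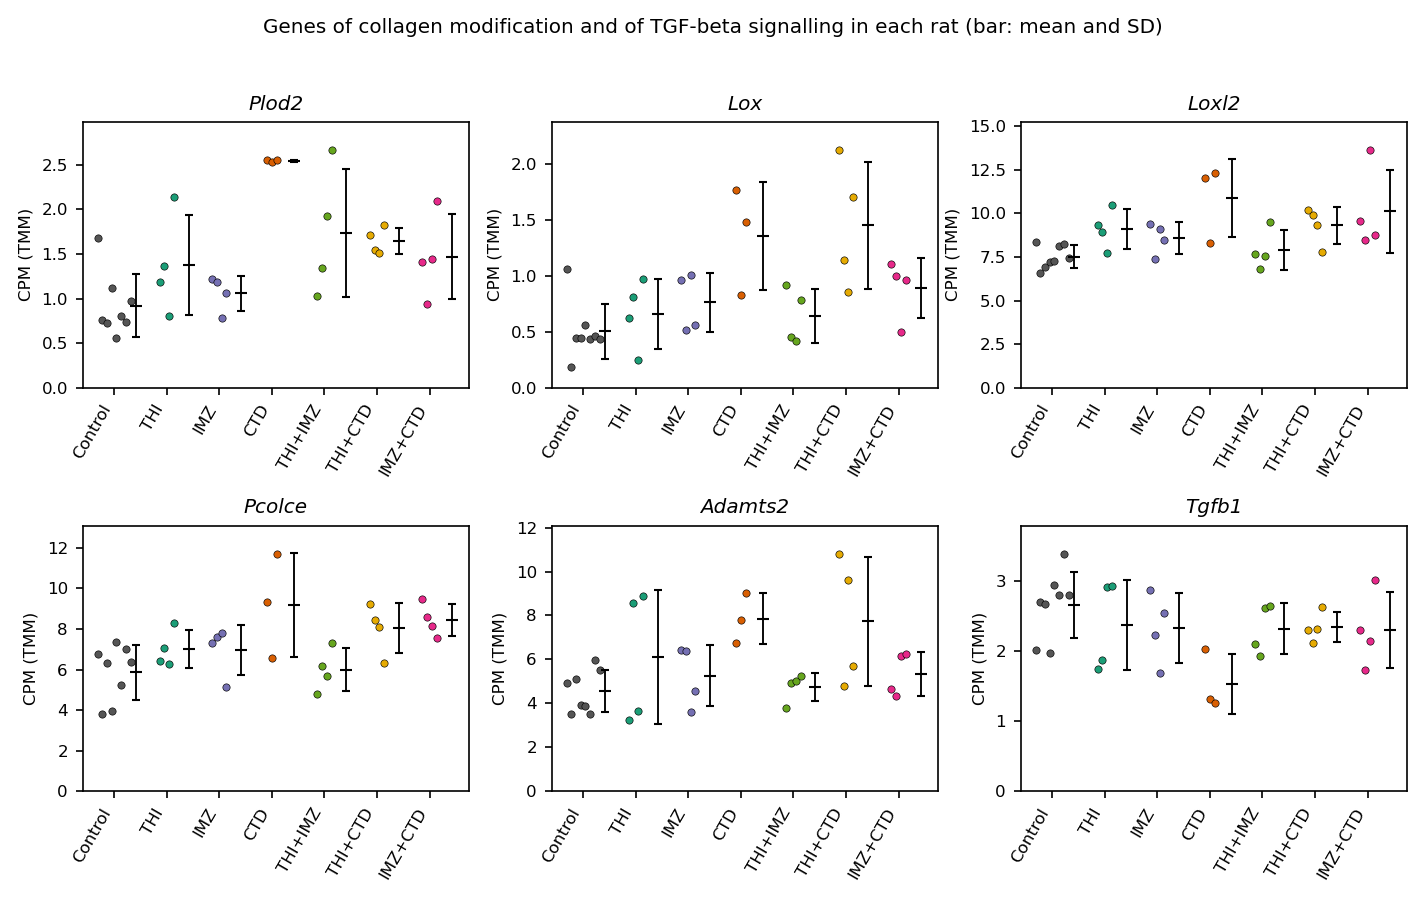
Levels of 6 genes of collagen modification and of profibrotic signalling in each rat, in CPM scaled by TMM on a linear axis from 0, by group. Dots are rats, the bar beside them is the mean with the SD. The 3 CTD rats are at about 2.5 CPM of Plod2, above all controls, and 2 of them are below all controls for Tgfb1. Bmp1 and Plod1, which were lower after CTD, are not shown.

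Markers of the cell types that liver tissue can hold were counted in the same way. Of all genes, 6.62% were higher and 6.03% lower after CTD, and 4.39% were called after THI + CTD. Of 14 stellate cell markers, none rose after CTD and Reln and Ecm1 were among those that fell, and their summed level was 288 to 371 CPM against 388 to 504 CPM in the controls, ranges that do not overlap. After THI + CTD Reln, Hgf and Colec11 were among those that fell, with a sum of 317 to 348 CPM. After IMZ and after THI + IMZ, 1 rose (Rgs5). None of the 14 was at 0 in all rats of a group. Of 9 measured portal fibroblast markers, none was called after CTD, and Dpt, which encodes dermatopontin, rose after THI + CTD (0.81 ± 0.15) and IMZ + CTD (0.76 ± 0.15). Their sum was 150 to 255 CPM in the controls and 199 to 282 CPM in CTD, and 1 of the 9 was at 0 in all CTD rats. In THI + CTD their sum was 291 to 516 CPM, above every control. Dpt alone was at 282 to 507 CPM there and at 143 to 241 CPM in the controls, so these sums mostly follow that gene. Of 7 measured smooth muscle markers, Tagln rose and Myh11 fell after CTD, and Myh11 fell after THI + IMZ and THI + CTD. No mesothelial or bile duct marker was called by edgeR in any comparison with the controls (at most 2 mesothelial and 1 bile duct marker had an unadjusted p under 0.05), DESeq2 called Cftr as higher after CTD, and mesothelial sums ran from 2.35 to 9.76 CPM.

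Of the sinusoidal and vascular endothelial markers, Kdr, Efnb2 and Cdh5 fell after CTD and Kdr after THI + CTD. No other measured marker of these 2 lists was called by edgeR in either comparison. The sums were 317 to 422 and 56.2 to 62.1 CPM in CTD against 388 to 464 and 55.4 to 65.7 CPM in the controls. Of 8 Kupffer cell markers 2 fell after CTD (Csf1r and Cd68) and 2 after THI + CTD (Csf1r and Cd163), and their sums overlapped those of the controls. Of 8 hepatocyte markers, Tat fell after CTD and Tat and Serpina1 after THI + CTD, and Apoa1 rose after THI + IMZ. Of 4 red blood cell genes 3 rose after CTD (Hbb, Hba1 and Alas2) and 1 fell (Slc4a1), with sums of 124 to 150 CPM against 22.2 to 52.2 CPM in the controls, and Hbb rose after THI + CTD. The part of these cell types in the collagen results was not tested.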

How the data were processed

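Total RNA of 31 livers was sequenced from stranded libraries (TruSeq Stranded Total RNA). The authors trimmed reads with Skewer, checked them with FastQC 0.11.5 and mapped and counted them per gene with STAR 2.5.2b on Rnor_5.0, per the submitters' notes and methods. The annotation release and strand setting of the counting are not given in the sources used here, so it is unknown whether reads of overlapping and antisense genes were separated. The deposited raw counts were used as they stand, and the deposited normalised table was not used.

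Genes that reached 2 counts in total were fitted with edgeR 4.0.16 (R 4.3.3, TMM, quasi-likelihood) in 1 model of 7 groups, with Benjamini-Hochberg adjustment across 19904 genes (threshold 0.05). The Wald test of DESeq2, which the authors used on these counts, was run as an alternative (version 1.42.0). Standard errors are the fold change on the log2 scale over the root of F. Log2 CPM used a prior count of 2. Relations used 100000 permutations within groups, or all orders in the controls. The edgeR p-values weigh a group difference against the spread between rats, which was estimated over all 7 groups together. On simulated counts of 19298 genes, changes were set only in genes with a mean of at least 1 CPM. There a log2 change of 1 was called in 87% of changed genes for CTD and in 84% for THI + IMZ. A log2 change of 2 was called in 97% and 99%. These shares do not cover the 23 collagen rows with a mean under 1 CPM, nor smaller changes.

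Named were all collagen rows called in a comparison, the 12 with the highest mean CPM and the partner chains of types I, IV, V, VI, VIII, IX and XI. Outside these rules, Col12a1 and Col26a1 were named for an unadjusted p under 0.05. Col2a1, Col24a1 and Col27a1 were named as further fibrillar genes, and Col10a1 for its low counts. Of each list, up to 3 called genes with the largest change per comparison were named. Further genes named from the lists were chosen after their values were seen. The collagen genes and lists were chosen with earlier results of these data known. Alternatives were the size factors and test of DESeq2, filterByExpr, no filter, only the groups compared, a replicate block, counts thinned to the smallest library, and leaving out each library. Acta2 and Cd34 were not analysed here, and 1 marker gene is not reported here.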

Additional observations from a re-analysis of the deposited data

Results flagged for a closer look

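In 4 of 96 pairs of a collagen gene and a group of 4 to 8 rats, 1 rat stood apart from the others by Dixon's criterion, and chance alone gives about 1 in 20. Col18a1 was at 550 CPM in the second THI rat, with the others at 630 to 643 CPM, and at 780 CPM in the third rat on IMZ + CTD, with the others at 527 to 563 CPM. Col6a1 was at 47.9 CPM in rat 4 on THI + IMZ, above the others at 40.2 to 41.4 CPM. Col6a3 was at 11.2 CPM in rat 4 on THI + CTD, below the others at 16.7 to 17 CPM. None of these genes was called in any comparison.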

How the results depend on the processing

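All 417 fold changes of called collagen genes kept their direction under every alternative, and none reversed. These genes were chosen by their calls in the same data. Most of the values come from leaving out 1 library, often of a group outside the comparison, so a reversal was unlikely from the start. With a replicate block 5 collagen genes were called for CTD in place of 9, 0 for THI + CTD in place of 2 and 1 over all treatments in place of 3. Lost were Col9a3 (adjusted p = 0.0979), Col4a5 (0.152), Col6a5 (0.0727) and Col8a1 (0.0944) for CTD and Col1a1 (0.161) and Col4a5 (0.182) for THI + CTD. Over all genes the block gave 1571, 348 and 1216 calls in place of 2518, 873 and 1893. The replicate numbers pair no animals. Numbers 5 to 8 occur only in the controls, so the block fits each of these 4 rats by itself. It thereby leaves only controls 1 to 4 in the comparisons. Of 23 same-numbered pairs of a treated and a control rat, 4 correlated above 0.1 (range -0.16 to 0.3) and 4 correlated best with their own number. DESeq2 called 8 collagen genes over all treatments, 10 for CTD and 3 for THI + CTD. Its calls over all genes were 199 for THI, 150 for IMZ, 3007 for CTD, 435 for THI + IMZ, 1386 for THI + CTD, 567 for IMZ + CTD and 3329 over all treatments, against 108, 50, 2518, 235, 873, 290 and 1893 by edgeR. Leaving out 1 library gave 4 (without the first CTD rat) to 10 calls for CTD, 0 (without the first rat on THI + CTD) to 2 for THI + CTD, 0 (without the first CTD rat) to 4 over all treatments, and 0 in the other 7 comparisons. For THI + CTD 1 gene was called without control 2, 6 or 8 or without the third or the last treated rat. With only the groups compared, Col5a1 (adjusted p = 0.061) and Col9a3 (0.0743) were lost for CTD and Col1a1 (0.0567) for THI + CTD. Of 684 class medians 651 moved by less than 1 SD. For CTD the median of type IV went from 0.19 to 0.65 with the replicate block and 0.40 with only the groups compared or filterByExpr. In the last 2 settings the second row of Col4a3, with no count in these groups, drops out. The pathway genes were followed under the same alternatives, a choice made after seeing the data. With the replicate block, the calls of Plod1 (adjusted p = 0.11), Adamts2 (0.0954), Timp4 (0.0537), Agrn (0.219), Tgfb1 (0.173), Tgfbr3 (0.0834) and SMAD3 (0.164) were lost for CTD. For THI + CTD, of the list genes called there, Lox kept its call under the block, and Leprel1 (0.0853), Adamts2 (0.161), Itgb1 (0.055), Mrc1 (0.102), Sparc (0.0632), Thbs1 (0.148), Tgfbr3 (0.107), Smad2 (0.117) and Bambi (0.183) were lost. With only the groups compared, Pcolce (0.0571), Agrn (0.0566) and SMAD3 (0.071) were lost for CTD, and with thinned counts Adamts2 (0.0628) for THI + CTD. The cause of these differences was not tested. Leaving out a library also made the number of rats smaller, and the part of that in the lost calls was not tested. With counts thinned to the smallest library 9, 2 and 4 rows were called for CTD, THI + CTD and all treatments. Depth leaves 23 collagen rows under 1 CPM, with few reads behind each value.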
